A study of Danio rerio with 54 samples.

Results

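The 9 genes described here encode 2 leptin hormones, cytokine receptors, a kinase, a transcription factor and inhibitors of cytokine signalling, and they were taken by symbol from a table of 30097 genes measured in zebrafish larvae that were chilled to 10 °C and rewarmed. They are lepa and lepb (leptins), lepr (leptin receptor), il6st (gp130, the receptor subunit shared by the interleukin 6 family, which is not part of the leptin receptor), jak1 (a Janus kinase), stat3 (a transcription factor) and socs1a, socs3a and socs3b (suppressors of cytokine signaling). The symbols matched 11 gene IDs, since jak1 and lepr each have a second ID, and all 11 passed the expression filter that left 25387 genes for testing. The ID with the higher mean stands for each of those symbols below. The second jak1 ID was listed at 0 in 15 of 54 libraries and the second lepr ID lay between 0.757 and 2.65 TPM, and because near-identical IDs can trade reads, neither was counted among the 9.

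Cytokines of this class act by bringing together receptor chains that carry Janus kinases. The kinases phosphorylate STAT3, which enters the nucleus and switches on genes that include those of its own inhibitors, the SOCS proteins, which then damp the same receptors. Leptin is best known in mammals as the fat hormone that reports energy stores, whereas in fish leptins are made largely outside fat tissue, the liver included, and gp130 cytokines drive the acute phase response and take part in regeneration. Transcript levels do not show whether STAT3 was phosphorylated, which was not measured.

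RNA-seq was performed on whole larvae of the AB strain in 18 groups of 3 samples. Untreated controls kept at 28 °C were collected at 96, 97, 98, 102, 108 and 132 hours post fertilization (ctrl_96 hpf to ctrl_132 hpf), and larvae moved at 96 hpf to 10 °C, a temperature lethal over longer exposure, were collected after 1, 2, 6, 12 and 24 h of cold (lc). Larvae given 12 h of cold were returned to 28 °C for 1, 2, 6, 12 and 24 h (re). Survivors of 24 h of cold followed by 24 h at 28 °C were separated into abnormal (er_ab) and normal (er_nor) larvae. The paper classed them by form and by ability to swim. By the paper's account the medium took about 1 h to warm from 10 to 28 °C. Rewarming times therefore count from the transfer, and re_1 h spans the warming of the medium. All cold comparisons with ctrl_96 hpf share the same 3 control samples, and all comparisons of rewarmed larvae with lc_12 h share the 3 lc_12 h samples. The survivors were 144 hpf old, an age with no control here, and lc_24 h (120 hpf) had none of its own age either, so that age and treatment cannot be told apart in those groups beyond what the neighbouring controls show. Neither the number of larvae pooled per sample nor their clutch is known, so p-values measure only the spread between these samples.

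Values are TPM, transcript abundances corrected for transcript length and scaled to the same total in every library, so levels of different genes can be set side by side but fewer cells of a type and less RNA per cell cannot be told apart. Sequencing depth is not given by TPM. Differences were tested with limma on log2(TPM + 1), a scale that understates changes of genes near 0, and a gene was called when the fold on that scale was at least 1.5 and the Benjamini-Hochberg adjusted p over all genes tested was at most 0.05. The median of all genes moved by -0.23 on the log2 scale in lc_24 h relative to ctrl_96 hpf and by 0.18 in re_6 h relative to lc_12 h. A scaling that removes such shifts is given where it ends a call, and calls gained with it are only counted, in the closing section. Genes listed as markers of neutrophils, macrophages, liver, muscle, epidermis, neurons, red cells and radial glia were detected in every group. The sum of the neutrophil list is mostly cpa5, so neutrophil content was not measured.

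In untreated larvae il6st, jak1, stat3 and lepr varied little, and socs1a, socs3a and the leptins varied more relative to their level. Over the 18 control samples il6st ran from 11.4 to 13.5 TPM (median 12.3), jak1 from 17.1 to 20.8 TPM (median 19.5) and stat3 from 11.1 to 15.3 TPM (median 12.9). socs3b ran from 10.7 to 16.1 TPM, socs3a from 3.96 to 8.23 TPM, lepr from 6.01 to 7.92 TPM and socs1a from 1.65 to 4.81 TPM. The leptins were close to absent: lepa was listed at 0 in 6 of the 18 control libraries and lepb in 9, and the highest values were 0.547 TPM for lepa and 2.39 TPM for lepb, the latter in ctrl_108 hpf replicate 1. Between 96 hpf and 102, 108 or 132 hpf none of the 9 genes was called by limma, beside 1.37%, 2.5% and 12.4% of all genes tested. At an unadjusted p under 0.05 the numbers were 0, 1 (socs3a, -0.60, adjusted p = 0.0805) and 2 (lepr, 0.14, and socs3a, -0.44).

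**Figure D1:**
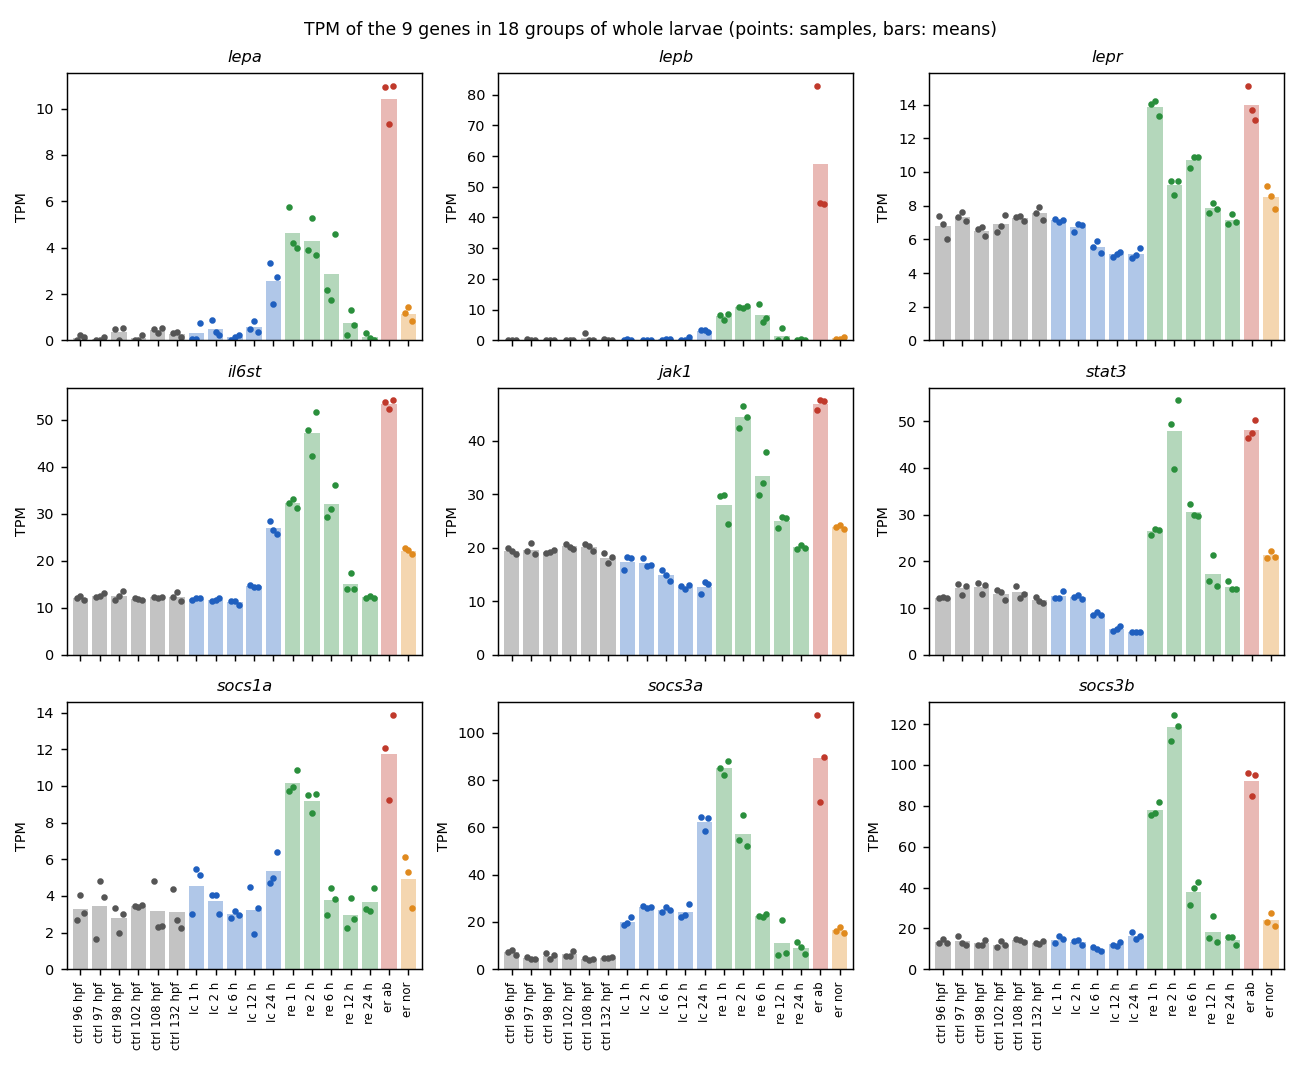
TPM (vertical axes, each from 0) of the 9 genes in the 18 groups (horizontal axes), with 1 point per sample and bars at the group means; grey marks controls, blue cold, green rewarming after 12 h of cold, red er_ab and orange er_nor. Controls stay low or level, socs3a is the only gene raised in lc_1 h to lc_6 h, and every gene is high in re_1 h, re_2 h and er_ab.

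In the first 12 h at 10 °C the genes moved in both directions. socs3a, a feedback inhibitor that binds receptor and Janus kinase, rose within 1 h and stayed up, while stat3 and jak1 were lower by 12 h and the other 6 genes were not called. socs3a measured 5.29, 4.41 and 4.28 TPM in ctrl_97 hpf and 18.6, 19.6 and 22.3 TPM in lc_1 h. Every cold sample lay above every control sample, and the log2 fold change was 1.90 (SE 0.22, adjusted p = 6.87e-08). socs3a was the single member called at 1 h, where 0.571% of all genes were called, and again at 2 h (1.14% of all genes) and 6 h (7%), each against the control of the same age. Its level was nearly flat between 2 and 12 h, at 26.2 ± 0.394 TPM in lc_2 h, 25.1 ± 0.914 TPM in lc_6 h and 24.2 ± 2.80 TPM in lc_12 h (SD, n = 3). At 12 h the log2 fold change against ctrl_108 hpf was 2.23 (SE 0.22, adjusted p = 3.03e-11).

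stat3 went the other way. It measured 14.7, 12.2 and 13.1 TPM in ctrl_108 hpf and 5.11, 5.42 and 6.12 TPM in lc_12 h, with no overlap, a log2 fold change of -1.13 (SE 0.09, adjusted p = 2.54e-13). The decline was already seen at 6 h, where stat3 measured 8.60, 9.07 and 8.48 TPM against 13.8, 13.4 and 11.7 TPM in ctrl_102 hpf, a change of -0.52 (SE 0.09, adjusted p = 2.79e-05) that fell short of the 1.5-fold requirement. jak1, a kinase upstream of STAT3, measured 12.8, 12.3 and 13.1 TPM in lc_12 h and 20.7, 20.4 and 19.4 TPM in ctrl_108 hpf. Its log2 fold change of -0.63 (SE 0.07, adjusted p = 4.97e-10) was called, but shrank to -0.44 and lost the call when libraries were rescaled by median of ratios. lepr changed by -0.43 (SE 0.06, adjusted p = 1.32e-07), under the 1.5-fold requirement. In this comparison 3 of the 9 genes were called, 1 higher and 2 lower, beside 5.77% of all genes higher and 14.1% lower (8.79% and 8.22% after the rescaling). The second jak1 ID was called higher at 6 h, at 1.83 (SE 0.69, adjusted p = 0.0452), the opposite direction to the main ID, with 2 of its 3 control libraries listed at 0.

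Against ctrl_96 hpf, the common starting point, socs3a was likewise the single member called at 1, 2 and 6 h, beside 0.284%, 0.748% and 4.83% of all genes. At 12 h socs3a (1.64, SE 0.22) and stat3 (-1.02, SE 0.09) were called, beside 15.1% of all genes, with jak1 just under the fold required (-0.57, SE 0.07). A pseudocount of 0.1 in place of 1 raised the count from 2 to 4 by adding jak1 (-0.61) and lepa (1.67).

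Between 12 and 24 h at 10 °C the leptins appeared. lepb measured 0.139, 0.0839 and 1.19 TPM in lc_12 h and 3.39, 3.37 and 2.68 TPM in lc_24 h, and lepa 0.498, 0.856 and 0.348 TPM and 3.36, 1.58 and 2.75 TPM. Neither gene overlapped between the time points, and the log2 fold changes were 1.57 (SE 0.36, adjusted p = 0.000614) and 1.16 (SE 0.23, adjusted p = 7.12e-05). il6st, which had stayed between 10.6 and 12.0 TPM through 6 h of cold, measured 14.8, 14.4 and 14.4 TPM at 12 h and 28.6, 26.7 and 25.7 TPM at 24 h, a change of 0.85 (SE 0.07, adjusted p = 7.48e-13). lepr, the receptor for leptin, changed by 0.01 (SE 0.06). The levels of these receptors, which serve different ligands, moved apart: il6st stood 2.19 ± 0.14 above lepr on the log2(TPM + 1) scale in lc_24 h against 0.75 ± 0.10 in ctrl_96 hpf (SD, n = 3).

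socs3a rose a second time, to 64.4, 58.4 and 63.7 TPM in lc_24 h, a log2 fold change of 1.33 (SE 0.22, adjusted p = 5.61e-06) over lc_12 h. socs3b, its paralog, measured 18.1, 14.8 and 16.0 TPM against 11.8, 11.5 and 13.4 TPM in lc_12 h, which do not overlap but differ by 0.39 (SE 0.14, adjusted p = 0.0315), less than the fold required. socs1a, the related inhibitor that also acts on interferon signalling in mammals, measured 4.69, 4.99 and 6.41 TPM against 4.46, 1.91 and 3.35 TPM. These groups do not overlap, and the change of 0.62 (SE 0.24, adjusted p = 0.0402) was called but lost without either of lc_12 h replicates 2 and 3 or lc_24 h replicates 2 and 3 (0.38 to 0.67, adjusted p from 0.0597 to 0.287). Of the 9 genes 5 were called higher from 12 to 24 h and none lower, beside 3.65% and 5.53% of all genes (5.59% and 3.67% after rescaling by median of ratios).

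Set against the start of the exposure at 96 hpf, lc_24 h larvae had more lepa, lepb, il6st and socs3a and less stat3. The log2 fold changes were 1.64 (SE 0.23) for lepa, 1.96 (SE 0.36) for lepb, 1.1 (SE 0.07) for il6st, 2.97 (SE 0.22) for socs3a and -1.18 (SE 0.09) for stat3. stat3 measured 4.86, 4.82 and 4.89 TPM, the lowest of the 18 groups, when ctrl_96 hpf measured 12.2, 12.3 and 12.2 TPM. jak1 changed by -0.58 (SE 0.07, adjusted p = 1.66e-09), just under the fold required, and was called with a pseudocount of 0.5 or 0.1. socs3b differed from ctrl_96 hpf by 0.26 (SE 0.14, adjusted p = 0.111). With 4 genes higher and 1 lower, the 9 stood beside 9.3% and 24.3% of all genes (15.6% and 14.1% after the rescaling), and their median change was 0.58 where that of all genes was -0.23.

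The first hour of rewarming raised all 9 genes. Rewarmed larvae were compared with lc_12 h, from which they came. lepb went from the values above to 8.31, 6.74 and 8.53 TPM in re_1 h and lepa to 5.74, 4.21 and 3.97 TPM, clear of the lc_12 h samples, with log2 fold changes of 2.66 (SE 0.36, adjusted p = 7.42e-08) and 1.85 (SE 0.23, adjusted p = 7.32e-09). lepr measured 4.96, 5.11 and 5.26 TPM in lc_12 h and 14.0, 14.2 and 13.3 TPM in re_1 h. This was the sharpest move of the receptor in the time course, 1.28 (SE 0.06, adjusted p = 2.66e-20), and its second ID was called in the same direction at 0.73 (SE 0.14). il6st reached 32.4, 33.1 and 31.2 TPM, a change of 1.1 (SE 0.07, adjusted p = 3.14e-17).

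The kinase gene jak1 rose by 1.07 (SE 0.07, adjusted p = 1.94e-16) to 29.6, 29.9 and 24.5 TPM. The Janus kinase genes jak2a (0.08, SE 0.15) and jak2b (0.36, SE 0.07), outside the 9, were not called. stat3 rose from its cold level to 25.6, 26.9 and 26.8 TPM, a log2 fold change of 2.07 (SE 0.09, adjusted p = 4.05e-21), and so moved past its control level within the hour. Among the inhibitors socs3b, called at no time point of cold, moved most, from 11.8, 11.5 and 13.4 TPM to 75.5, 76.5 and 81.9 TPM, a change of 2.58 (SE 0.14, adjusted p = 4.57e-18). socs3a reached 85.0, 82.2 and 88.2 TPM and socs1a 9.71, 9.92 and 10.9 TPM, with changes of 1.78 (SE 0.22) and 1.44 (SE 0.24). No group overlapped its lc_12 h samples for any of the 9 genes. Of all genes tested 12.3% were called higher at 1 h (9.99% after rescaling by median of ratios), and the median change of the 9 was 1.78 where that of all genes was 0.04.

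Against untreated ctrl_108 hpf larvae, whose age is 1 h below that of re_1 h, 8 of the 9 were called higher, beside 8.12% of all genes (10.5% after the rescaling). The exception was jak1, at 0.45 (SE 0.07, adjusted p = 6.59e-07). socs3a stood out with 4.01 (SE 0.22), followed by lepb at 2.51 (SE 0.36) and socs3b at 2.38 (SE 0.14). Sums of macrophage and pan-leukocyte markers were not above those of the controls. The 4 macrophage markers, all detected, summed to between 19.2 and 21.6 TPM in re_1 h, 22.0 and 24.4 TPM in lc_12 h and 27.5 and 31.8 TPM in ctrl_108 hpf. The 4 pan-leukocyte markers summed to between 22.0 and 28.2 TPM, 22.4 and 27.5 TPM and 32.5 and 37.6 TPM. The part of cell content in the rise of the 9 genes was not tested.

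**Figure D2:**
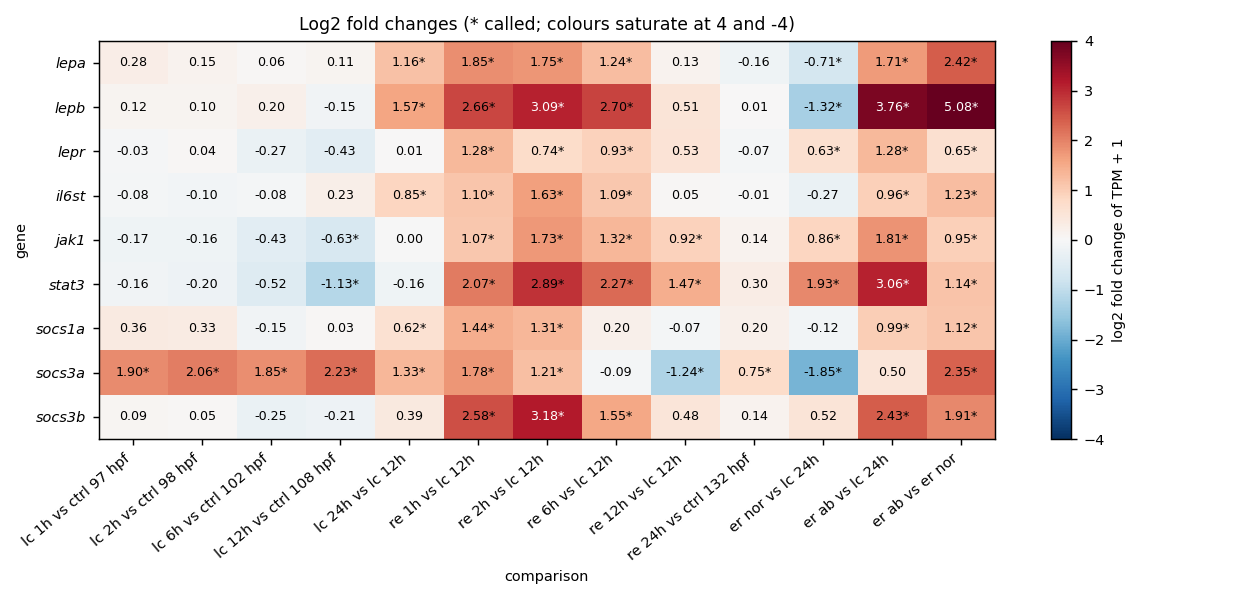
Log2 fold changes of TPM + 1 of the 9 genes (rows) in 13 comparisons (columns), in colour and in figures, with a star where the gene was called by limma at a fold of 1.5 and an adjusted p of 0.05. socs3a alone is starred in the first 3 cold columns, and the columns for re_1 h, re_2 h and er_ab against er_nor are starred for every gene.

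The 9 genes did not peak together. Between 1 and 2 h of rewarming jak1 and stat3 rose further, jak1 to 42.4, 46.4 and 44.4 TPM and stat3 to 49.4, 39.7 and 54.4 TPM, by 0.65 (SE 0.07, adjusted p = 8.76e-10) and 0.82 (SE 0.09, adjusted p = 4.3e-09). The jak1 call was lost without re_1 h replicate 3, where the change was 0.56. socs3b reached its highest level of the series, 112, 125 and 119 TPM, 0.60 (SE 0.14, adjusted p = 0.0015) above re_1 h, a call lost after rescaling by median of ratios (0.56) and without re_1 h replicate 1 or 2 or re_2 h replicate 2 (0.56 to 0.58), since the fold then fell just short. il6st followed at 47.8, 42.4 and 51.7 TPM (0.53, SE 0.07, adjusted p = 3.01e-08). By contrast lepr stood at 9.49, 8.66 and 9.45 TPM, -0.54 (SE 0.06, adjusted p = 4.12e-09), and socs3a at 54.5, 65.2 and 52.2 TPM, -0.57 (SE 0.22, adjusted p = 0.0455), both without reaching the fold for a call. Between re_1 h and re_2 h 3 of the 9 genes were called, all higher, beside 3.38% of all genes. All 9 were still above lc_12 h (14.1% of all genes, 10.6% after the rescaling), and 8, all but lepr, above ctrl_108 hpf (6.33% of all genes).

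By 6 h the inhibitors had dropped furthest. Relative to re_2 h, socs3b fell to 31.4, 39.7 and 42.7 TPM (-1.63, SE 0.14, adjusted p = 1.46e-11), socs3a to 22.6, 21.9 and 23.2 TPM (-1.30, SE 0.22, adjusted p = 9.92e-06) and socs1a to 2.98, 4.45 and 3.81 TPM (-1.11, SE 0.24, adjusted p = 0.000414). stat3 was lower by a smaller step, at 32.3, 30.0 and 29.6 TPM (-0.62, SE 0.09, and -0.52 and not called without re_2 h replicate 3). il6st (-0.54, SE 0.07, adjusted p = 1.92e-08) and jak1 (-0.41, SE 0.07, adjusted p = 8.88e-06) were lower with no overlap but under the fold required. No difference was called for the ligands, with lepb at 11.7, 5.88 and 7.44 TPM (-0.39, SE 0.36, adjusted p = 0.453). In this step 4 of the 9 genes were called lower and none higher, beside 2.77% and 5.56% of all genes (3.79% and 3.88% after rescaling by median of ratios). Measured from lc_12 h, 7 genes were still higher at 6 h (16.6% of all genes, 9.54% after the rescaling), the exceptions being socs3a at -0.09 (SE 0.22) and socs1a at 0.20 (SE 0.24).

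At 12 h of rewarming most levels were lower than at 6 h, with 1 library standing apart. re_12 h replicate 2 held 20.8 TPM of socs3a against 5.95 and 6.89 TPM in the other replicates, 4.09 TPM of lepb against 0.0828 and 0.417, 26.1 TPM of socs3b against 15.2 and 13.1, and 21.4 TPM of stat3 against 15.7 and 14.8. It was the highest of the 3 replicates for every one of the 9 genes. With all replicates, socs3a was -1.24 (SE 0.22, adjusted p = 7.89e-06) relative to lc_12 h and -1.76 without that library, while jak1 (0.92, SE 0.07, and 0.90 without it) and stat3 (1.47, SE 0.09, and 1.31) stayed above lc_12 h. These 3 genes were the calls at 12 h and at 24 h, beside 21.3% and 20.2% of all genes. The jak1 call at 24 h (0.62, SE 0.07) ended after rescaling by median of ratios (0.52).

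The larvae rewarmed for 12 h and those still at 10 °C were both 120 hpf old. The former had more jak1 (0.93, SE 0.07) and stat3 (1.63, SE 0.09) and less lepa (-1.03, SE 0.23), lepb (-1.06, SE 0.36), il6st (-0.80, SE 0.07), socs1a (-0.69, SE 0.24) and socs3a (-2.57, SE 0.22), 2 genes higher and 5 lower beside 28.2% and 7.86% of all genes (15.1% and 14.7% after the rescaling). The lepb difference depended on the library named above: it was -1.74 (adjusted p = 1.67e-05) without re_12 h replicate 2, but -0.62 (adjusted p = 0.15) without replicate 1 and -0.82 (adjusted p = 0.0736) without replicate 3. The socs1a call ended without re_12 h replicate 1 (-0.57, adjusted p = 0.0683) or lc_24 h replicate 3 (-0.58, adjusted p = 0.0623).

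After 24 h of rewarming 8 of the 9 genes were not called against untreated ctrl_132 hpf larvae of the same age. The exception was socs3a, at 11.4, 9.43 and 6.59 TPM against 4.81, 4.83 and 5.17 TPM. The groups did not overlap and the change of 0.75 (SE 0.22, adjusted p = 0.0088) was called, 1 gene of 9 beside 6.08% of all genes, but without re_24 h replicate 1 it was 0.59 with an adjusted p of 0.0801. stat3 (0.30, SE 0.09, adjusted p = 0.0136) and jak1 (0.14, SE 0.07, adjusted p = 0.149) did not overlap their controls either, both higher in re_24 h and under the fold required. The other 6 differed by between -0.16 (lepa) and 0.20 (socs1a), with adjusted p of at least 0.469.

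Abnormal and normal survivors of the longer exposure differed. Abnormal larvae (er_ab) had more of all 9 transcripts than normal larvae (er_nor) that had passed through the same 24 h of cold and 24 h at 28 °C, a comparison in which 5.58% of all genes were called higher. lepb measured 82.8, 44.8 and 44.4 TPM in er_ab and 0.409, 0.606 and 0.986 TPM in er_nor. It is the largest difference of the 9, 5.08 (SE 0.36, adjusted p = 1.12e-14), and er_ab held the highest lepb of the series, several times the 10.8, 10.5 and 11.2 TPM of re_2 h. lepa measured 10.9, 9.32 and 11.0 TPM and 1.17, 1.43 and 0.828 TPM, a difference of 2.42 (SE 0.23, adjusted p = 1.91e-11).

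The receptors and the kinase differed less but were tightly measured. il6st measured 53.9, 52.3 and 54.1 TPM in er_ab and 22.7, 22.2 and 21.5 TPM in er_nor (1.23, SE 0.07, adjusted p = 1.94e-18), and lepr 15.1, 13.7 and 13.1 TPM and 9.19, 8.58 and 7.77 TPM (0.65, SE 0.06, adjusted p = 1.9e-11). jak1 measured 45.7, 47.5 and 47.4 TPM and 23.9, 24.2 and 23.4 TPM (0.95, SE 0.07, adjusted p = 1.67e-14). For none of these did the groups overlap. stat3 measured 46.4, 47.4 and 50.3 TPM in er_ab, about the level of re_2 h, and 20.8, 22.1 and 21.0 TPM in er_nor (1.14, SE 0.09, adjusted p = 4.76e-13).

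The inhibitors followed. socs3a measured 108, 70.9 and 89.7 TPM in er_ab and 16.1, 17.9 and 15.5 TPM in er_nor, a difference of 2.35 (SE 0.22, adjusted p = 1.66e-11). socs3b measured 96.2, 84.6 and 95.2 TPM and 23.0, 27.5 and 21.1 TPM, a difference of 1.91 (SE 0.14, adjusted p = 7.27e-14), and socs1a 12.1, 9.25 and 13.9 TPM and 6.12, 5.32 and 3.36 TPM, a difference of 1.12 (SE 0.24, adjusted p = 0.000321). Each er_ab sample lay above each er_nor sample for all 9 genes, and the calls held without any single library. The median difference of the 9 was 1.23 where that of all genes was -0.02.

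Cell type markers differed between the same groups. The 4 macrophage markers, none at 0, summed to between 76.5 and 78.5 TPM in er_ab and 52.3 and 60.7 TPM in er_nor, and the 4 pan-leukocyte markers to between 69.2 and 75.6 TPM and 59.0 and 60.5 TPM. The 4 radial glia markers summed to between 447 and 527 TPM in er_ab and 954 and 974 TPM in er_nor, the 4 neuron markers to between 333 and 351 TPM and 408 and 413 TPM, the 4 epidermis markers to between 3705 and 4025 TPM and 5752 and 6006 TPM, the 4 red cell markers to between 739 and 899 TPM and 1071 and 1240.5 TPM, and the 4 hepatocyte markers to between 1958 and 2157 TPM and 2358 and 2537 TPM. Muscle markers overlapped, between 8237 and 8455 TPM and 8115 and 8404 TPM. The sum of the 4 genes listed as neutrophil markers is mostly cpa5 and so does not measure neutrophils. It overlapped too, between 1026 and 1201.5 TPM and 940.1 and 1090 TPM. The part of these differences in the result was not tested.

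Both kinds of survivor were also set against lc_24 h, the end of their cold exposure. In er_ab 8 of the 9 genes were higher, beside 27.3% of all genes (18.5% after rescaling by median of ratios), led by lepb (3.76, SE 0.36) and stat3 (3.06, SE 0.09). The exception was socs3a (0.50, SE 0.22, adjusted p = 0.0425), already high at the end of cold. In er_nor stat3 (1.93, SE 0.09), jak1 (0.86, SE 0.07) and lepr (0.63, SE 0.06) were higher and socs3a (-1.85, SE 0.22), lepb (-1.32, SE 0.36) and lepa (-0.71, SE 0.23) lower, 3 genes each way beside 25.9% and 8.61% of all genes (16.2% and 15.2% after the rescaling). The lepr call in er_nor ended after the rescaling (0.39) and without er_nor replicate 1 (0.58), and that of lepa without lc_24 h replicate 1 (-0.55, adjusted p = 0.0545) and with a pseudocount of 0.1 (adjusted p = 0.146).

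The 2 socs3 paralogs exchanged their order along the series. In every control sample socs3b was the more abundant, by 0.84 ± 0.12 on the log2(TPM + 1) scale in ctrl_96 hpf and by 1.51 ± 0.10 in ctrl_108 hpf (SD, n = 3). In every cold sample socs3a was, the difference being -0.45 ± 0.16 in lc_1 h, -0.93 ± 0.06 in lc_12 h and -1.87 ± 0.08 in lc_24 h. The pair was nearly level in re_1 h, at -0.13 ± 0.04, and socs3b led again in re_2 h by 1.04 ± 0.12. Among survivors socs3b led in er_nor by 0.50 ± 0.08, and in er_ab the samples fell on both sides of 0 (0.06 ± 0.21).

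**Figure D3:**
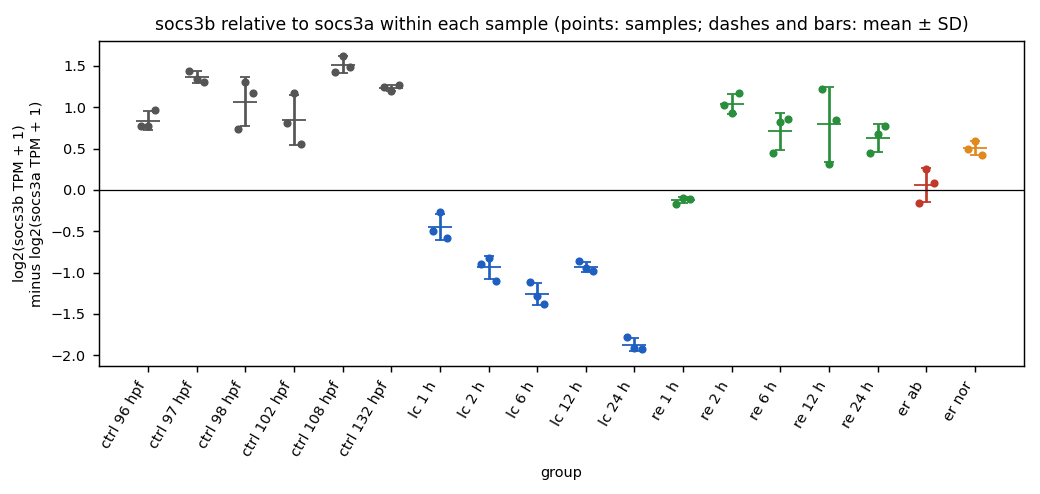
Log2(TPM + 1) of socs3b minus that of socs3a within each sample (vertical axis) in the 18 groups (horizontal axis); points are samples, dashes and bars the mean ± SD of 3. Controls lie above 0, all 15 cold samples below it with lc_24 h lowest at -1.87, and rewarmed samples return above it from re_2 h on.

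The ligand pair behaved otherwise. lepb and lepa were both near 0 in controls and differed by 0.25 ± 0.44 in lc_24 h, then lepb moved ahead by 0.66 ± 0.25 in re_1 h, 1.18 ± 0.27 in re_2 h and 2.29 ± 0.46 in er_ab, while in er_nor the difference was -0.37 ± 0.42. Ordered by group mean, 8 genes were highest in er_ab and socs3b in re_2 h. The er_ab samples were clear of the next group for lepa, lepb and il6st, whereas they overlapped those of re_1 h for lepr, socs1a and socs3a and those of re_2 h for jak1 and stat3.

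Other genes of the pathway, taken from lists that leave out the 9 members, were counted in the same way, and their values below are log2 fold changes with SE of called genes. At 1 h of cold the called genes were 4 of 24 listed STAT3 targets, all higher, beside 0.571% of all genes called. Among them were junbb, an AP-1 subunit (41.4 ± 1.90 against 12.6 ± 1.83 TPM, 1.65, SE 0.12), cebpb (0.66, SE 0.11) and junba (0.85, SE 0.15). At 12 h 13 of the 24 were higher and none lower, beside 5.77% and 14.1% of all genes. Their median change was 0.68 where that of all genes was -0.16. First came junbb (3.85, SE 0.12), the survival factor mcl1a (1.69, SE 0.06) and the kinase pim1 (1.78, SE 0.08). Many of these genes also answer to other pathways, and the list was drawn mainly from mammals, with earlier results of these data known. Of the 7 STAT genes other than stat3, 4 were lower in lc_12 h than in ctrl_108 hpf, beside 14.1% of all genes. Among them were stat2 (-0.99, SE 0.09), stat5b (-0.75, SE 0.08) and stat6 (-0.94, SE 0.13). Against ctrl_96 hpf 1 of the 7 was lower at 12 h, stat5b, beside 15.1% of all genes called in either direction. stat2 was itself called higher in ctrl_108 hpf than in ctrl_96 hpf.

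Among the cytokines that signal through gp130, the interleukin 11 paralogs were high in lc_24 h. il11b was already called higher at 12 h than in ctrl_108 hpf (0.86, SE 0.16), as was lifrb. Relative to ctrl_96 hpf, il11a, an interleukin 11 paralog, was higher (3.93 ± 0.489 against 0.0945 ± 0.0276 TPM, 2.17, SE 0.21), il11b was listed at 0 in all 3 ctrl_96 hpf libraries and averaged 4.72 ± 0.59 TPM in lc_24 h, and lifrb, a gp130 partner chain, was higher (1.35, SE 0.10). Of 12 other gp130 cytokines and receptors 4 were higher and 4 lower, and clcf1, cntf and m17, further ligands of the list, were not called. Of the 24 STAT3 targets 15 were higher and 2 lower, beside 9.3% and 24.3% of all genes, with mcl1a (2.24, SE 0.06), junbb (4.17, SE 0.12) and cebpb (3.02, SE 0.11) first.

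In the first hour of rewarming 8 of those 12 gp130 genes were higher than in lc_12 h and none lower (median 0.65, all genes 0.04), beside 12.3% of all genes higher. They were led by il11b (7.28 ± 0.239 against 1.09 ± 0.356 TPM, 2.00, SE 0.16), il11a (7.49 ± 0.310 against 0.673 ± 0.10 TPM, 2.35, SE 0.21) and clcf1, a ligand of the same family (1.15, SE 0.12). Of the 4 other Janus kinases 1 was higher, tyk2 (0.75, SE 0.07), and of the 7 other STAT genes 2, stat2 (0.65, SE 0.09) and stat4 (0.62, SE 0.12). Of 7 other SOCS genes 2 were higher, socs9 (0.71, SE 0.09) and socs5a (0.65, SE 0.08). These small counts stand beside the same 12.3% of all genes. The STAT3 targets split, 7 higher and 4 lower, beside 12.3% of all genes higher (9.99% higher and 6.3% lower after median-of-ratios rescaling). Among them cebpd (2.29, SE 0.12) and timp2b (1.89, SE 0.16), an inhibitor of metalloproteinases, were up and pim3 (-1.09, SE 0.08) down. At 6 h 6 of the targets were higher and 9 lower than in lc_12 h, while 5 of the 7 other STAT genes were higher, stat5b (0.89, SE 0.08), stat2 (1.01, SE 0.09) and stat6 (1.40, SE 0.13) among them. Of all genes 16.6% were higher at 6 h (9.54% higher and 8.98% lower after the rescaling).

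Between survivors 16 of the 24 STAT3 targets were higher in er_ab and none lower, beside 5.58% and 4.74% of all genes (median 1.13, all genes -0.02). Because the list was chosen with earlier results of these data known, this count is a description and not a test. The other 8 were not called, among them hp, a haptoglobin gene, at -0.33 (SE 0.09, adjusted p = 0.00601) and ccnd1, a cyclin, at -0.08 (SE 0.05). Those called included cebpb (143 ± 32.2 against 23.2 ± 1.73 TPM, 2.55, SE 0.11), timp2b (254 ± 42.7 against 27.8 ± 3.14 TPM, 3.14, SE 0.16) and mcl1a (1.14, SE 0.06). The fibrinogen genes fga (1.13, SE 0.11), fgb (1.06, SE 0.12) and fgg (1.04, SE 0.13) were also among the 16. So were saa, an acute phase gene (2.45, SE 0.45), and hamp, the hepcidin gene (1.17, SE 0.21). Of the 12 gp130 genes 4 were higher and none lower, with lifrb (15.1 ± 1.70 against 4.72 ± 0.207 TPM, 1.49, SE 0.10), il11a (2.52, SE 0.21) and il11b (1.18, SE 0.16). Of the 7 other STAT genes only stat1b was called, higher (1.63, SE 0.14), and none of the 7 other SOCS genes, the 4 other Janus kinases or the 11 other inhibitors (phosphatases and PIAS proteins) was. Set against lc_24 h, the 24 targets split in er_ab, 9 higher and 6 lower (median 0.11, all genes 0.21), beside 27.3% of all genes higher. fga (3.19, SE 0.11) was among the 9, and pim1 (-1.12, SE 0.08) and junbb (-1.46, SE 0.12) among the 6. cebpb (-0.50, SE 0.11) and mcl1a (-0.44, SE 0.06) were not called. In er_nor 4 targets were higher and 13 lower than in lc_24 h, beside 25.9% and 8.61% of all genes.

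**Figure D4:**
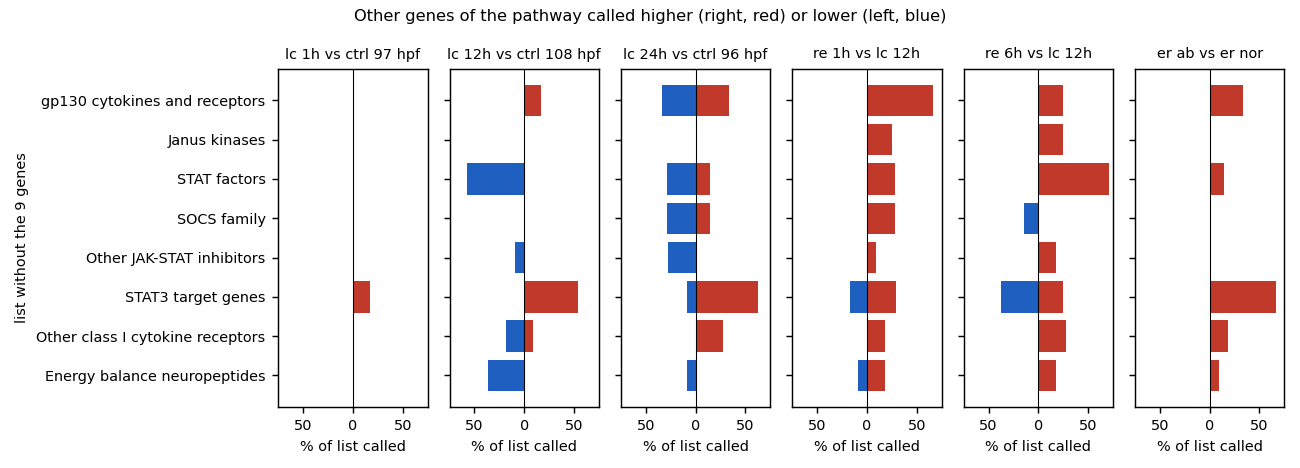
Percent of each list of pathway genes, the 9 members left out, called higher (red, to the right of 0) or lower (blue, to the left) in 6 comparisons; the lists hold 12, 4, 7, 7, 11, 24, 11 and 11 tested genes from top to bottom. In er_ab against er_nor 16 of 24 STAT3 targets are higher (5.58% of all genes), and in re_1 h against lc_12 h 8 of 12 gp130 cytokines and receptors are (12.3% of all genes).

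Of 11 energy balance neuropeptides and receptors tested, genes of the hypothalamus on which leptin acts in mammals, 4 were lower in lc_12 h than in ctrl_108 hpf and none higher, beside 14.1% and 5.77% of all genes, first crhb (-1.46, SE 0.21), mc4r (-0.79, SE 0.19) and cart3 (-0.63, SE 0.20). Against ctrl_96 hpf 1 was lower at 12 h, crhb, and 1 higher, pomcb, beside 15.1% of all genes called in either direction. In lc_24 h 1 was lower than in ctrl_96 hpf, crhb (-1.76, SE 0.21), beside 24.3% of all genes. Relative to lc_24 h, 4 were higher in re_12 h, 6 in er_nor and 4 in er_ab and none lower, beside 28.2%, 25.9% and 27.3% of all genes higher. Only cart3 was called between the survivors, higher in er_ab (2.62, SE 0.20), beside 5.58% of all genes higher.

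Likeness in course was described by the Pearson correlation of log2(TPM + 1) means over the 18 groups, which share libraries with one another and with the choice of genes. Among the 9, jak1 and stat3 were most alike (r = 0.98), then lepa and lepb (0.97), and stat3 and socs3a least (0.32). lepr and jak1 lie on the same chromosome with 5 annotated genes between them in the RefSeq annotation of GRCz12tu, dnajc6 and ak4 being the protein-coding ones, and their r was 0.87. This was not particular to the pair, since lepr and stat3 had an r of 0.89. Outside the 9, the genes nearest to lepb were znf800b (0.97), gcga (0.97), slc16a9a (0.965) and timp2b (0.96), each highest in er_ab. Nearest to stat3 were tgfbr2b (0.98), atl3 (0.98), pdlim4 (0.97) and pla2g4aa (0.97), of which the first 3 were highest in re_2 h. Nearest to socs3a were junba (0.95), sall4 (0.93), adamts1, ccdc59 and fthl31 (0.92 each), and nearest to socs3b tinagl1 (0.99), hcar1-4 (0.97), chmp4ba, rps6kb1a and crb2a (0.97 each).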

How the data were processed

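Total RNA of whole AB larvae was sequenced in 54 samples, 18 groups of 3. The authors mapped reads with Salmon 0.13.1 to the zebrafish cDNA of Ensembl release 101 and summarized genes with tximport. The deposited TPM values of 30097 genes sum to between 998493 and 999530 per sample, so they do not carry sequencing depth. The paper's supplement lists read numbers and mapping rates, which were not used here, and no counting interval is given. Genes with at least 1 TPM in all samples of a group were kept (25387). One linear model of 18 group means over all 54 samples was fitted to log2(TPM + 1) with limma 3.58.1 in R 4.3.3, with trended variances and 36 residual degrees of freedom, and 27 comparisons were taken from it. The study tested read counts with DESeq2, which were not analysed here, so its fold of 1.5 and adjusted p of 0.05 were applied to the limma results. Of IDs that share a symbol the one with the highest mean was used. The named genes are the 9 members whatever their values, up to 3 called genes of smallest adjusted p per pathway list and comparison described, and the 5 genes most correlated with lepb, stat3, socs3a or socs3b over group means. Some further genes of the lists are named as examples, among them genes that were lower or not called. The members and lists were chosen with earlier results of these data known, and no list test was run. Alternatives were other pseudocounts, filters and scaling (median of ratios), a fit to the 2 groups compared, a replicate block and leaving out each sample. The fit was tested on simulated data. Python 3.11.15 drew the figures. Overlap with neighbouring genes was read from RefSeq (GRCz12tu), where lepa overlaps mir129-3 and the other 8 members overlap no other gene.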

Additional observations from a re-analysis of the deposited data

Results flagged for a closer look

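The change from the end of cold to 24 h at 28 °C was compared between larvae given 24 h of cold and larvae given 12 h (re_24 h relative to lc_12 h). The contrast was added after the values were seen, and limma tested the difference of the 2 changes in the same model. In abnormal survivors 8 of the 9 genes differed from the shorter course, all upward: lepb by 3.98, socs3b by 2.20, lepa by 2.18, socs3a by 1.83, stat3 by 1.81, il6st by 1.19, jak1 by 1.19 and lepr by 0.87 on the log2 scale (SE from 0.09 to 0.51). Of all genes tested 21.6% differed, a share that was not split by direction. socs1a differed by 0.82 (SE 0.34, adjusted p = 0.0533). In normal survivors stat3 alone differed, by 0.68 (SE 0.13, adjusted p = 0.000114), beside 11.6% of all genes. That call ended after rescaling by median of ratios (0.53). lepb differed by -1.10 (SE 0.51, adjusted p = 0.105), which did not pass. The courses also differ in age and in how survivors were chosen, which cannot be told apart from the length of cold.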

How the results depend on the processing

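No result reversed. The count of called genes between lc_12 h and ctrl_96 hpf was 4 instead of 2 with a pseudocount of 0.1. In the added contrast of normal survivors the count went from 1 (stat3) to 0 after rescaling by median of ratios, where stat3 was 0.53, under the fold required. Counts over the leave-one-out fits ran from 0 to 1 for re_24 h against ctrl_132 hpf, from 1 to 2 for lc_6 h against ctrl_102 hpf, from 1 to 2 for the contrast of normal survivors and from 8 to 9 for that of abnormal survivors. The widest range was 3 to 6, for re_6 h against re_2 h. Next came 2 to 4 for re_2 h against re_1 h and 5 to 7 for re_12 h and er_nor, each against lc_24 h. Of 261 gene values, calls were gained and lost in 8 and 1 with a pseudocount of 0.1, 4 and 0 with 0.5, 3 and 5 with median of ratios, 1 and 0 with a filter at 5 TPM and none without a filter. Of 1674 leave-one-out values 23 were gained and 16 lost, and of 243 fits to the compared groups alone 2 were lost (lepb in re_12 h against lc_24 h, adjusted p = 0.144, and socs1a in lc_24 h against lc_12 h, adjusted p = 0.101). The added contrasts involve more groups and were not part of the last. The replicate block changed 0 of the 261 calls. Samples sharing a replicate number did not deviate together (r from -0.13 to 0.08 over 27 comparisons). No pairing by number was seen, though 3 samples per group cannot exclude a weak one. Over all genes, median of ratios moved the split of higher against lower calls by over 10 percentage points in 16 of 27 comparisons, for example from 2361 and 6157 to 3956 and 3567 in lc_24 h against ctrl_96 hpf, and a pseudocount of 0.1 moved the number called from 926 and 1404 to 1093 and 2579 in lc_24 h against lc_12 h and from 857 and 767 to 1336 and 1117 in re_2 h against re_1 h.

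TPM without counts gives no precision for single low values, which bears most on lepa and lepb in controls. Leptin values of 0 can be failed estimates. Each group holds 3 samples of unknown origin, so 1 library can decide a call, as for socs3a in re_24 h.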

Other observations

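At 24 h of rewarming after the shorter course the fibrinogen genes, acute phase members of the STAT3 target list, were called. Their levels were higher in earlier rewarming and in survivors. fga averaged 263 TPM in re_6 h, 224 TPM in re_12 h, 238 TPM in er_nor and 522 TPM in er_ab. Relative to ctrl_132 hpf, re_24 h larvae had more fibrinogen transcripts: fgb 145 ± 14.2 against 70.6 ± 3.03 TPM (log2 fold change 1.02, SE 0.12), fga 113 ± 10.5 against 58.3 ± 4.11 TPM (0.94, SE 0.11) and fgg 105 ± 8.26 against 55.6 ± 3.26 TPM (0.91, SE 0.13), all with n = 3. With hamp, the iron hormone hepcidin (0.59, SE 0.21, adjusted p = 0.0337 by limma), they were the 4 called genes among the 24 of the list, beside 4.75% of all genes called higher, when of the 9 members only socs3a was called. In untreated larvae fga and hamp were called lower at 132 hpf than at 96 hpf. At 96 hpf untreated larvae averaged 105 TPM of fgb, 93.4 TPM of fga and 71.2 TPM of fgg. The part of delayed development in the re_24 h result was not tested. The acute phase genes hp (0.34, SE 0.09) and saa (-0.31, SE 0.45) were not called. Of 11 other class I cytokine receptors 3 were higher in lc_24 h than in ctrl_96 hpf and none lower, beside 9.3% and 24.3% of all genes. Between survivors 2 were higher in er_ab than in er_nor and none lower, beside 5.58% of all genes higher. Both il6 and osmr, ligand and receptor of the gp130 family, are in the table but did not pass the expression filter in any group. The second jak1 ID was erratic within groups, for example 8.14, 0 and 10.4 TPM in re_2 h.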
